A study of Mus musculus with 8 samples.

Results

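The genes described here are 38 genes of protein folding in the endoplasmic reticulum (ER): chaperones, disulfide enzymes, stress sensors, degradation factors and the channel through which new proteins enter the ER. They were taken from the deposited expression table by symbol, and all 38 were present among its 12339 genes. The RNA came from RiboTag pull-downs, in which ribosomes of Cre-expressing cells carry a tag and are isolated together with the RNA they hold. The 8 libraries were made from mouse retina labelled as Müller cells (radial glia that support retinal neurons) in oxygen-induced retinopathy at postnatal day 14, with 4 libraries from wild-type (WT) mice and 4 from mice with a Müller cell-specific conditional knockout (cKO) of Nrf2. In this model pups are kept in high oxygen and returned to room air, and the inner retina then becomes short of oxygen. Both groups went through the retinopathy, so no library shows these genes in a healthy retina. The Cre line, the deleted exon, the sex and the number of animals per library are not given in the sources used here. Nor is it given what the replicate numbers stand for. Libraries of equal number are treated below as pairs, or as a block, because their values correlated across genes. The p-values here reflect only how these libraries vary, which may be technical.

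Secreted and membrane proteins enter the ER through the Sec61 channel, fold with the help of the chaperone BiP and the lectin chaperones calnexin and calreticulin, and gain disulfide bonds from the protein disulfide isomerases. When unfolded proteins build up, the sensors IRE1, PERK and ATF6 start the unfolded protein response (UPR), which raises the genes of chaperones and of ER-associated degradation. Müller cells span the whole retina and secrete growth factors such as VEGF. Nrf2, encoded by Nfe2l2, is a transcription factor that activates antioxidant genes.

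Values are FPKM, fragment counts scaled to transcript length and library size, and differences are cKO minus WT on the log2(FPKM + 0.5) scale, which understates the change of low genes. Nfe2l2 stood at 17.5, 18.8, 23.1 and 17.5 FPKM in WT 1, 3, 4 and 5 and at 12.7, 16.5, 14.8 and 10.4 in cKO 1, 3, 4 and 5 (log2 difference −0.50, p = 0.0286 in an exact permutation test, two-sided, which can give no smaller p with 70 assignments). Every cKO value lay below every WT value. The 15 Müller cell markers checked were all in the table, and their summed level was 9334 to 15954 FPKM in WT and 9759 to 13991 in cKO. Markers of rods (10 of 10 in the table, 3644 to 5728 FPKM in WT and 3868 to 6042 in cKO) and bipolar cells (9 of 9) were abundant too, so the libraries were not of Müller cells alone, whereas 8 of 9 microglia markers and 6 of 10 vessel and pericyte markers were not in the table. In such mixed samples fewer cells of a type and less RNA per cell cannot be told apart.

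The ER folding genes were mostly a little higher in cKO, by amounts that for single genes did not pass the test. By value 28 of the 38 were higher in cKO and 10 lower, where 50.7% of all genes were higher. The median difference was 0.12, against 0.00 over all genes, and single genes ranged from −0.29 (Ern1) to 0.37 (Sdf2l1). Without the replicate number as a block, limma called 0 of the 38 at an adjusted p under 0.05 (0% of all genes were called in either direction, and the smallest adjusted p of a member was 0.453). At an unadjusted p under 0.05, 7 were higher, or 18.4%, and 0 lower, where 3.95% of all genes were higher and 6.67% lower. With the block, Manf rose and 37 did not pass (2.99% of all genes were called higher and 7.59% lower), and 14 members were higher at an unadjusted p under 0.05 (12.4% of all genes) and 0 lower (16% of all genes).

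The groups were separate in 8 members. In 7 of them, Xbp1, Hspa5, Calr, P4hb, Pdia4, Herpud1 and Sec61g, every cKO library lay above every WT library. That is 18.4% of the members, against 2.06% of all genes. In Syvn1 every cKO library lay below every WT library, as in 2.28% of all genes. Without WT 4 the count above was 13 of 38, against 5.36% of all genes, and without cKO 3 it was 10, against 8.63%. The count below was 2 without WT 1 (Syvn1 and Ssr4), against 3.44% of all genes. It was also 2 without cKO 3 (Syvn1 and Sel1l), against 8.04%. With equal-sum (TPM) scaling the count above was 5 (Calr, Herpud1, Hspa5, P4hb and Ssr2), against 1.83% of all genes. With quantile scaling the count above was 6 (Herpud1, Manf, P4hb, Pdia4, Sec61g and Ssr2), against 2.75%. In both of these scalings Syvn1 overlapped. Within the replicate pairs, 20 of 38 members were higher in cKO in all 4 pairs (16.7% of all genes) and 4 were lower in all 4 (19.5%).

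**Figure D1:**
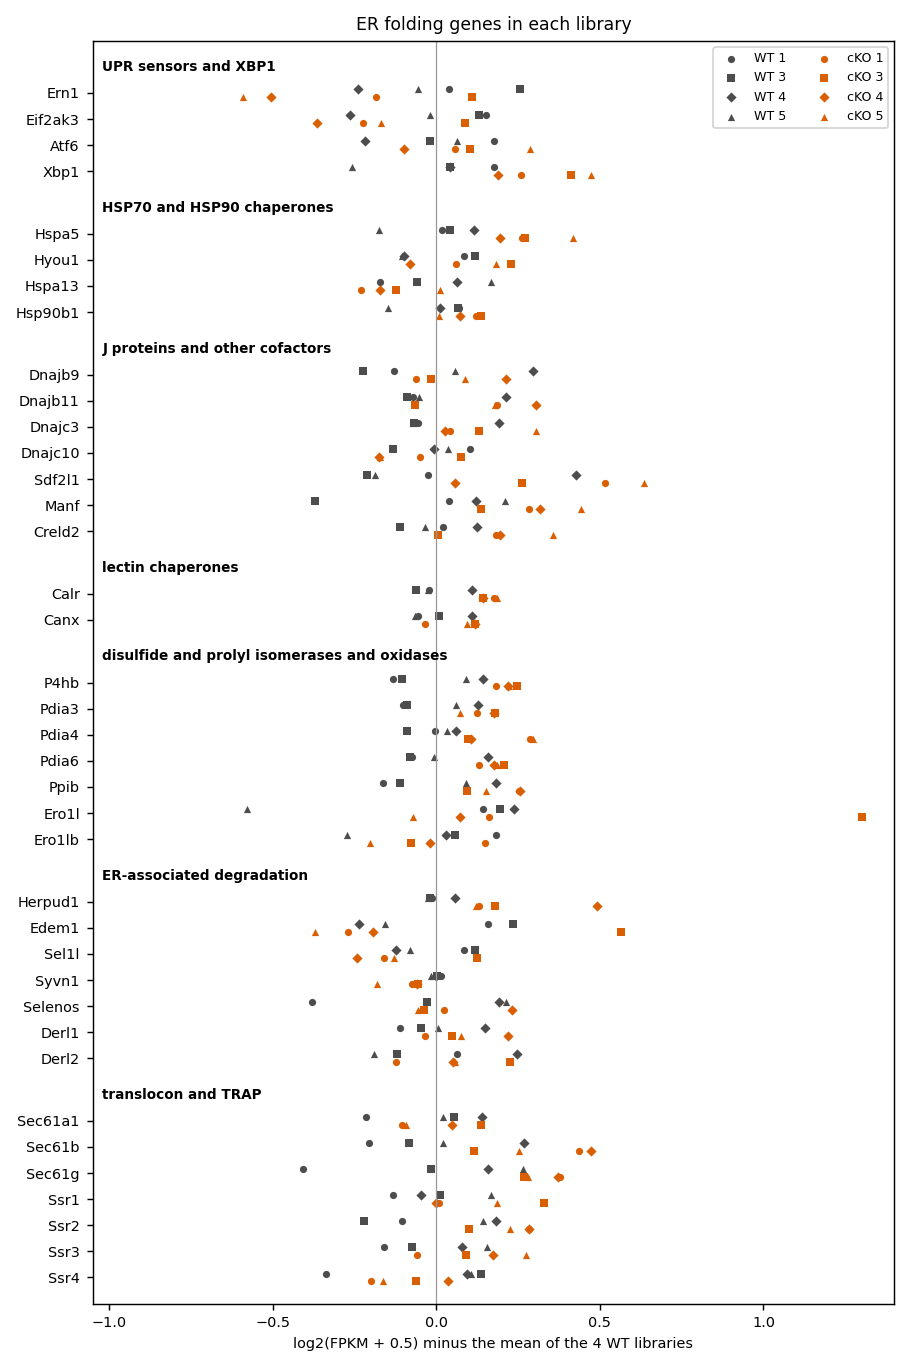
Each row is 1 of the 38 genes, grouped by role, and each point is 1 library, placed at its log2(FPKM + 0.5) minus the mean of the 4 WT libraries. Grey points are WT and orange points cKO, with 1 shape for each replicate number. Most orange points lie to the right of 0, the diamonds of WT 4 often lie among them, and Ero1l in cKO 3 lies far to the right.

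As a share of all FPKM of a library, the 38 genes made up 0.604%, 0.602%, 0.631% and 0.600% in WT 1, 3, 4 and 5, and 0.654%, 0.693%, 0.649% and 0.665% in cKO 1, 3, 4 and 5. The groups did not overlap in this share, with WT 4 the highest of WT and cKO 4 the lowest of cKO. The median member stood at −0.02, −0.04, 0.11 and −0.01 (log2, relative to the WT mean) in WT 1, 3, 4 and 5 and at 0.09, 0.12, 0.11 and 0.14 in the cKO libraries of the same numbers. WT 4 therefore lay within the cKO range. The median difference within pairs 1, 3, 4 and 5 was 0.11, 0.20, 0.04 and 0.12, smallest in pair 4.

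**Figure D2:**
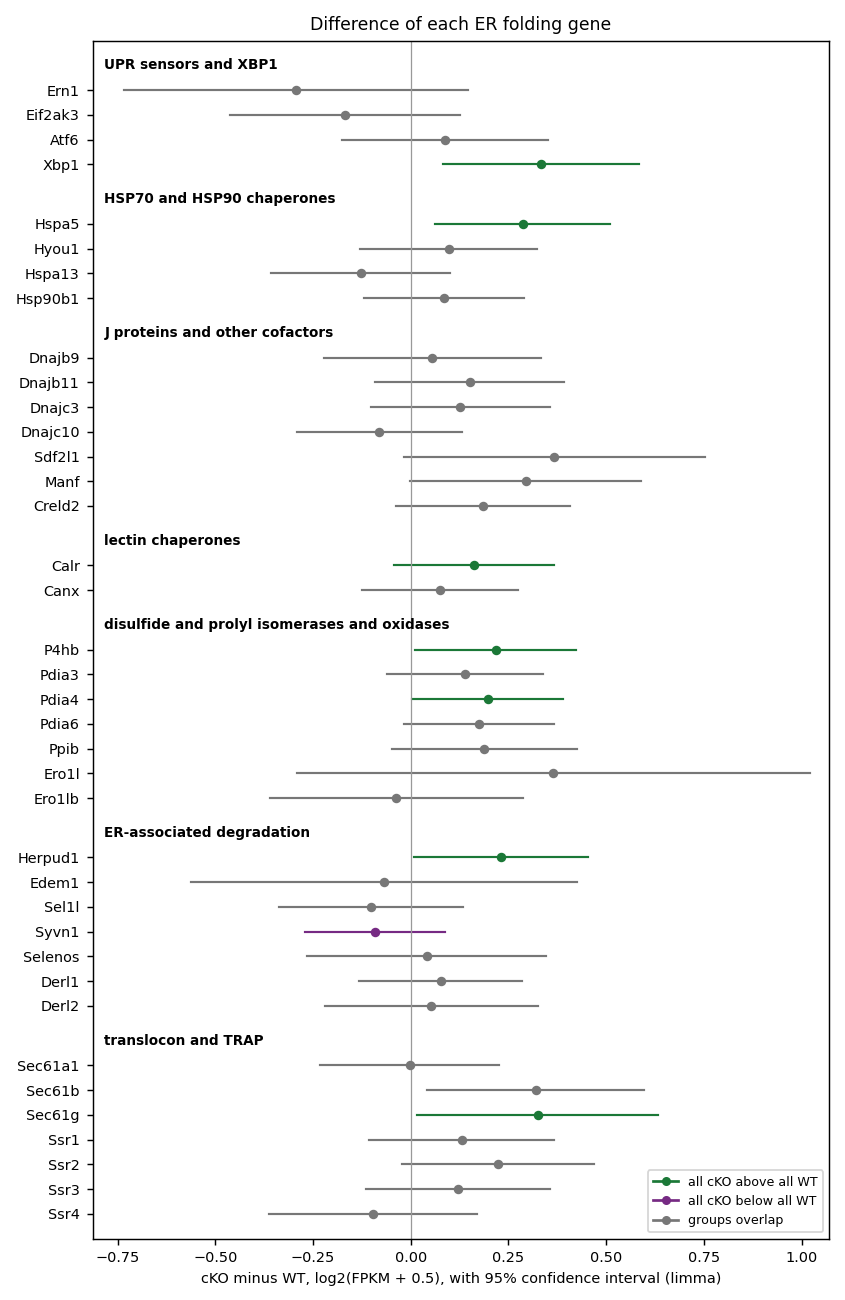
Points show the cKO minus WT difference of each gene on the log2(FPKM + 0.5) scale and bars its 95% confidence interval from limma (4 libraries in each group). Green marks the 7 genes whose cKO libraries all lie above the WT libraries, purple marks Syvn1, whose cKO libraries all lie below, and grey marks genes whose groups overlap.

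Several of these promoters carry the ER stress element, a known binding site of ATF6 and XBP1. The element was searched as CCAAT and CCACG with 9 bases between them, on both strands, in the 250 bases before each RefSeq start site (GRCm38.p6). It was found for 9 of the 31 members with a promoter in the table (Hspa5, Hsp90b1, Dnajc3, Creld2, Calr, Canx, Pdia6, Ero1lb and Syvn1) and for 35 of 27025 genes in all, or 0.130%. A related form, ATTGG and CCACG with 1 base between them, was found in Herpud1 and in 0.037% of all genes, and TGACGTG in Hspa5 and in 1.85% of all genes. The sequences below are shown for some of these genes, 5′ to 3′ on the strand of the gene, with the matched element in capitals. Of the carriers not shown, Hsp90b1 differed by 0.09, Dnajc3 by 0.13, Canx by 0.07 and Ero1lb by −0.04. In Calr and Creld2 the match is on the opposite strand, so the capitals start with the reverse complement of CCACG. Hspa5, Calr, Pdia6 and Creld2 were higher in cKO by value, as was Herpud1 with the related form. Syvn1, with CCAAT and CCACG 9 bases apart close to its start, was lower.
Hspa5, chr2:34772020-34772048, plus strand: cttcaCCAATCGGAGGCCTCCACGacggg
Calr, chr8:84847045-84847123, minus strand: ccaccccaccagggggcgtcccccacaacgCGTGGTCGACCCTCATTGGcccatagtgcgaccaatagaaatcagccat
Pdia6, chr12:17266461-17266539, plus strand: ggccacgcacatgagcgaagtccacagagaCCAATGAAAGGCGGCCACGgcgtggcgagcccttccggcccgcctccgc
Creld2, chr15:88819490-88819568, plus strand: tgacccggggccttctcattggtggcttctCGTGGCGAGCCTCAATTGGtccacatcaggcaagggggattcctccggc
Herpud1, chr8:94386347-94386417, plus strand: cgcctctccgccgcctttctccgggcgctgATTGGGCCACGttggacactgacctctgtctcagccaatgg
Syvn1, chr19:6046502-6046575, plus strand: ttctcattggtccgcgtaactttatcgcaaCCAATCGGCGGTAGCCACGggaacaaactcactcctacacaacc

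The 9 members with the element differed by a median of 0.13 (−0.09 to 0.29, 7 of 9 higher in cKO), and the 22 with a promoter and no such match by 0.13 (−0.29 to 0.37, 16 of 22 higher). A match is a description of these letters and not a bound site, and no match says only that they are not in this window. Atf6, Hyou1, Hspa13, Manf, Derl1, Sec61a1 and Ssr2 had no entry.

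Among the sensors, the RNA of the factor that acts after IRE1 was higher by value while that of 2 of the sensors was lower. Xbp1, the transcription factor whose mRNA IRE1 splices (ENSMUSG00000020484; GRCm38 chromosome 11, 5520659 to 5525893, plus strand), was at 48.6, 44.3, 44.3 and 35.9 FPKM in WT 1, 3, 4 and 5 and at 51.6, 57.4, 49.1 and 60.0 in cKO 1, 3, 4 and 5. All cKO values lay above all WT values, though cKO 4 stood only just above WT 1. The difference was 0.33 (SE 0.11, 95% interval 0.08 to 0.58, adjusted p = 0.453, and 0.0872 with the block). Gene-level FPKM does not tell spliced from unspliced Xbp1. Ern1, which encodes IRE1, averaged 3.33 ± 0.551 FPKM in WT libraries and 2.66 ± 0.718 in cKO ones (mean ± SD of 4 libraries, as throughout), lower in all 4 pairs (−0.29, adjusted p = 0.572). Eif2ak3, which encodes PERK, was at 12.3 ± 1.64 and 10.9 ± 1.54 (−0.17, adjusted p = 0.624), also lower in all 4 pairs. Atf6 was at 13.5 ± 1.58 and 14.4 ± 1.64 (0.09, 95% interval −0.18 to 0.35).

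Of the large chaperones, only BiP had groups that did not overlap. Hspa5, which encodes BiP, the ER member of the HSP70 family (ENSMUSG00000026864; GRCm38 chromosome 2, 34771970 to 34777547, plus strand), was at 211, 215, 226 and 185 FPKM in WT 1, 3, 4 and 5 and at 250.4, 252, 239 and 279 in cKO 1, 3, 4 and 5. No values of the groups overlapped, with WT 5 the lowest and cKO 5 the highest of all. The difference was 0.29 (SE 0.10, 95% interval 0.06 to 0.51), or 21.9% on the FPKM scale (adjusted p = 0.453, and 0.0774 with the block). Hsp90b1, the ER member of the HSP90 family, was about as abundant (219.9 ± 15.2 and 233 ± 9.27 FPKM), was higher in all 4 pairs and differed by 0.09 (95% interval −0.12 to 0.29). Hyou1, an HSP70-like protein that helps BiP exchange its nucleotide, differed by 0.10 (24.2 ± 2.02 and 26 ± 2.5), and Hspa13, another HSP70-like protein, by −0.13 (17.4 ± 1.83 and 15.9 ± 1.18, lower in all 4 pairs).

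The cofactors of BiP were higher by value in 6 of 7 members, with a median of 0.15. Manf, a small ER protein that is also secreted and protects neurons (ENSMUSG00000032575; GRCm38 chromosome 9, 106838312 to 106891979, minus strand), was at 108, 81.0, 114 and 121 FPKM in WT 1, 3, 4 and 5 and at 128, 115, 131 and 142 in cKO 1, 3, 4 and 5. The groups overlapped, since cKO 3 lay below WT 5, but each cKO library lay above the WT library of its number. The difference was 0.29 (SE 0.13, adjusted p = 0.471, and 0.0378 with the block). This is the 1 call among the 38, where 2.99% of all genes were called higher. With the block Manf did not pass without pair 1 (0.0979), 3 (0.127), 4 (0.0844) or 5 (0.0764), nor with TPM scaling (0.0548) or quantile scaling (0.0949). GENCODE places Rbm15b on the same strand over exons of Manf, and the locus given in the table spans several genes, so part of this value can come from a neighbour.

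Sdf2l1, a partner of BiP with its J proteins, had the largest difference of the 38, 0.37 (SE 0.17, adjusted p = 0.477, and 0.213 with the block). It was at 8.92, 7.78, 12.4 and 7.92 FPKM in WT 1, 3, 4 and 5 and at 13.2, 11.0, 9.47 and 14.4 in cKO 1, 3, 4 and 5, higher in 3 pairs and lower in pair 4. Without pair 4 and with the block its adjusted p was 0.0327. Creld2, an ER protein induced in the UPR, differed by 0.18 (22.1 ± 1.57 and 25.2 ± 2.57 FPKM, higher in all 4 pairs, adjusted p = 0.501). The J proteins, which bring clients to BiP, differed by less: Dnajb11 by 0.15, Dnajc3 by 0.13, Dnajb9 by 0.06 and Dnajc10, which also reduces disulfides, by −0.08, with adjusted p of 0.597 to 0.873.

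Calreticulin and its membrane-bound partner calnexin were the most and the fifth most abundant members. Calr, a soluble lectin chaperone that also buffers calcium (ENSMUSG00000003814; GRCm38 chromosome 8, 84841850 to 84846934, minus strand), was at 350.1, 341, 384 and 349.6 FPKM in WT 1, 3, 4 and 5 and at 403, 393, 393 and 405 in cKO 1, 3, 4 and 5. Each cKO value was above WT 4, the highest of WT. The difference was 0.16 (SE 0.09, adjusted p = 0.513, and 0.145 with the block). Reads of a processed pseudogene, if there is one, could be shared with it, which was not checked. Canx was at 198 ± 11.3 and 209 ± 10.3 FPKM, and its difference of 0.07 (95% interval −0.12 to 0.27) was −0.01 with quantile scaling.

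All 4 disulfide isomerases were higher by value, by 0.14 to 0.22. P4hb, the classical protein disulfide isomerase (ENSMUSG00000025130; GRCm38 chromosome 11, 120560298 to 120573253, minus strand), was at 112, 114, 136 and 131 FPKM in WT 1, 3, 4 and 5 and at 139.7, 146, 143 and 144 in cKO 1, 3, 4 and 5. The cKO values lay close together and above all of WT (0.22, SE 0.09, adjusted p = 0.469, and 0.0854 with the block). Pdia4 (ENSMUSG00000025823; GRCm38 chromosome 6, 47796141 to 47813430, minus strand) was at 51.8, 48.8, 54.1 and 53.1 FPKM in WT and at 63.4, 55.5, 55.9 and 63.8 in cKO in the same order. Here cKO 3 and cKO 4 stood just above WT 4, and the difference was 0.20 (SE 0.09, adjusted p = 0.469, and 0.0955 with the block). Pdia3, which works with the lectin chaperones, differed by 0.14, Pdia6 by 0.18 and Ppib, the ER cyclophilin that isomerises proline bonds, by 0.19. All 3 were higher in all 4 pairs, with adjusted p of 0.483 to 0.556.

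Neither oxidase that recharges the isomerases passed, with or without the block. Ero1l, the ERO1 alpha oxidase and a gene induced by low oxygen, was at 18.9, 19.6, 20.2 and 11.3 FPKM in WT 1, 3, 4 and 5 and at 19.1, 42.7, 17.9 and 16.2 in cKO 1, 3, 4 and 5. WT 5 was low and cKO 3 was high, and the remaining 6 libraries lay between 16.2 and 20.2. Its difference of 0.37 had an SE of 0.29 and a 95% interval of −0.29 to 1.02. Ero1lb, the beta form, was at 4.49 ± 0.638 and 4.35 ± 0.493 FPKM (−0.04, and 0.04 with quantile scaling).

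**Figure D3:**
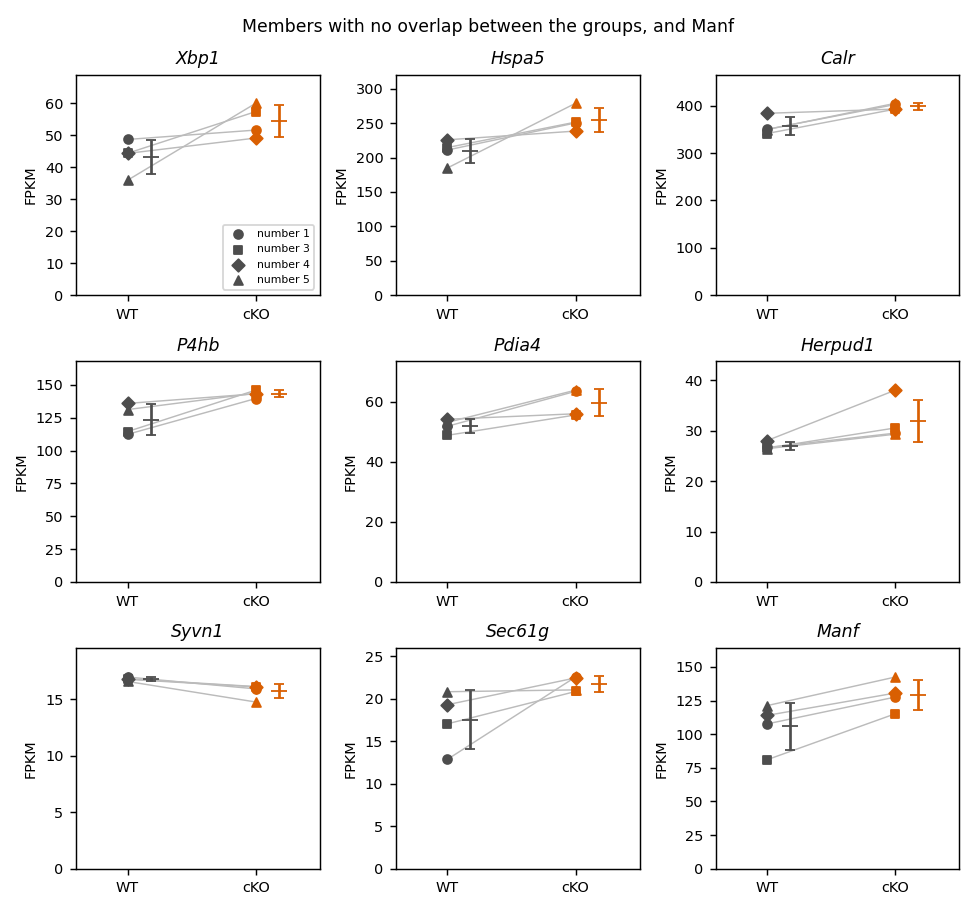
FPKM of the 8 members whose groups did not overlap, and of Manf, in WT (grey) and cKO (orange). Each point is 1 library, lines join libraries with the same replicate number, and bars give the mean and SD of 4 libraries. Syvn1 lies lower in cKO and the other 8 genes higher, with the smallest steps for number 4 in Hspa5, Calr and P4hb.

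Degradation factors went both ways, with 4 of 7 higher and 3 lower by value and a median of 0.04. Herpud1, a UPR-induced adaptor of the HRD1 ligase (ENSMUSG00000031770; GRCm38 chromosome 8, 94386438 to 94395377, plus strand), was at 26.7, 26.6, 28.1 and 26.4 FPKM in WT 1, 3, 4 and 5 and at 29.5, 30.6, 38.1 and 29.3 in cKO 1, 3, 4 and 5. All cKO values lay above WT, and cKO 4 stood highest (0.23, SE 0.10, adjusted p = 0.469, and 0.0854 with the block). Syvn1, which encodes the HRD1 ligase itself (ENSMUSG00000024807; GRCm38 chromosome 19, 6046576 to 6053712, plus strand), was at 17.0, 16.8, 16.8 and 16.6 FPKM in WT and at 15.9, 16.1, 16.1 and 14.8 in cKO in the same order. The WT libraries spread by only 0.161 FPKM (SD), and the cKO values were all below them (−0.09, SE 0.08, adjusted p = 0.654, and 0.416 with the block). Sel1l, the partner of HRD1, differed by −0.10 (27.7 ± 2.32 and 25.9 ± 3.0 FPKM). Derl1 and Derl2, the derlins of the export channel, differed by 0.08 and 0.05, Selenos, a selenoprotein that binds derlins, by 0.04 and Edem1, which marks misfolded glycoproteins, by −0.07. The signs of Derl2, Selenos and Edem1 depended on single libraries or on the scaling.

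In the translocon, the small subunits of Sec61 were higher by value and the large one was not. Sec61b was at 69.0, 75.1, 96.1 and 80.9 FPKM in WT 1, 3, 4 and 5 and at 108, 86.4, 111 and 95 in cKO 1, 3, 4 and 5. The groups overlapped only at WT 4, which lay above cKO 3 and cKO 5 (0.32, SE 0.12, adjusted p = 0.460, and 0.0554 with the block). With the block and TPM scaling together the Sec61b log2 difference passed (0.29, adjusted p = 0.0474 in limma). Sec61g (ENSMUSG00000078974; GRCm38 chromosome 11, 16500530 to 16508484, minus strand) was at 12.9, 17.0, 19.3 and 20.8 FPKM in WT and at 22.6, 20.9, 22.4 and 21 in cKO in the same order. The lowest cKO library stood barely above WT 5 (0.32, SE 0.14, adjusted p = 0.469, and 0.122 with the block). Sec61a1, the pore itself, was at 68.2 ± 6.93 and 67.9 ± 5.51 FPKM, with a 95% interval of −0.23 to 0.23. Of the TRAP complex, which helps proteins into the channel, Ssr2 differed by 0.22 (107 ± 14.3 and 124 ± 7.27 FPKM, with an adjusted p of 0.485 in limma and of 0.0920 once blocked), Ssr1 by 0.13 and Ssr3 by 0.12, each higher in all 4 pairs. Ssr4 differed by −0.10 (41.2 ± 6.01 and 38.3 ± 2.88).

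Within the list, short genes were more often higher by value. With all genes cut into 4 equal classes by summed exon length, the 9 members of the shortest class (up to 2760 bases) and 12 of 13 in the next were higher in cKO, against 3 of 10 in the class after it and 4 of 6 in the longest. The medians of the members were 0.22, 0.16, −0.05 and 0.07 from the shortest class to the longest. Over all genes the medians fell with length, with values of 0.11, 0.04, −0.01 and −0.11 and with 70.1%, 57.5%, 46.9% and 28.2% of genes higher in cKO. Across the 38 members, Spearman's rho of the difference with length was −0.57 and across 12327 genes −0.37. Genes are not independent replicates, and these values describe the same 8 libraries. The members were also bright: 18 of 38 lay in the highest of 4 equal classes by mean FPKM (33.3 and above), where 66.9% of all genes and 16 of the 18 members were higher in cKO. Libraries differed in this balance, with the median log2 value of the shortest class minus that of the longest at −0.28, −0.34, 0.12 and 0.03 in WT 1, 3, 4 and 5 and 0.11, −0.16, 0.31 and 0.09 in cKO. The part of length and level in the differences of the members was not tested.

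**Figure D4:**
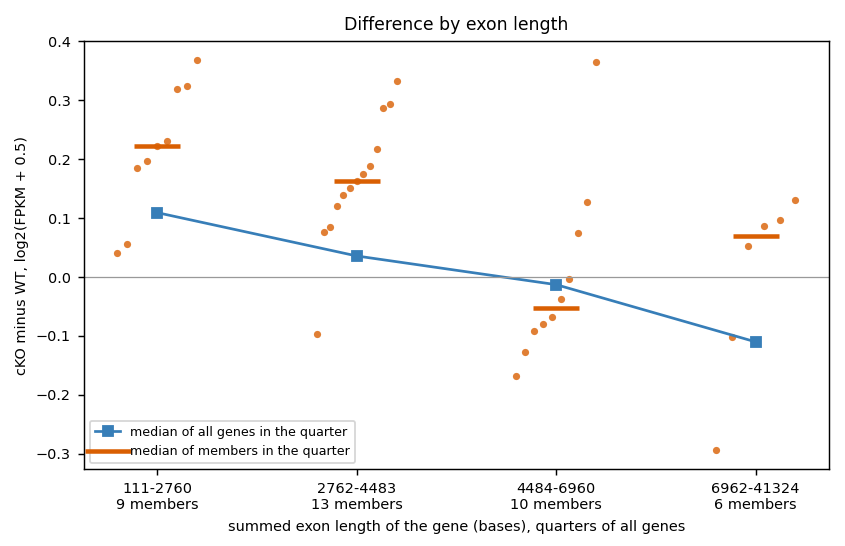
The horizontal axis gives the summed exon length in bases, in 4 equal classes of all genes, and the vertical axis the cKO minus WT difference on the log2(FPKM + 0.5) scale. Blue squares are medians of all genes, orange points the 38 members and orange bars their medians, which stand above the blue squares in 3 classes and below in the class of 4484 to 6960 bases.

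Of the markers of retinal cell types, 0 passed without the block, as for all genes, and the blocked calls below stand beside 2.99% of all genes called higher and 7.59% lower. The lists themselves were not tested. The summed bipolar cell markers were at 1953 to 2587 FPKM in WT and 2501 to 3107 in cKO, which overlap, and 4 of the 9 rose with the block. Amacrine and horizontal cell markers (7 of 10 in the table) were at 211 to 242 in WT and 163 to 206 in cKO without overlap, and ganglion cell markers (6 of 8) at 64.2 to 85.8 and 46.4 to 66.1 with overlap, with 3 members of each falling with the block. Most of the amacrine and horizontal sum was Pax6, at 162 to 185 FPKM in WT and 130 to 165 in cKO. Pax6 overlapped between the groups and did not pass with the block. Cone markers (7 of 7) were at 90.8 to 121 and 101 to 117, and with the block 1 rose and 4 fell. Of the 15 Müller cell markers 2 fell with the block. The 3 measured genes listed as astrocyte markers were at 434 to 773 FPKM in WT and 603 to 887 in cKO in sum. Gfap rose with the block (55.3 to 166 FPKM in WT and 155 to 304 in cKO, 1.35), as did S100b (0.44). Aldoc did not pass (0.03). Which cells gave the Gfap and S100b RNA was not tested. The 4 measured vessel and pericyte markers were at 195 to 279 FPKM in WT and 206 to 255 in cKO in sum. Of these Rgs5 rose with the block (26.1 to 30.9 FPKM in WT and 41.7 to 54.7 in cKO, 0.76, adjusted p = 0.0028, and 0.149 without the block, the smallest of all genes). Kdr (−0.21), Flt1 (−0.07) and Pdgfrb (−0.25) were lower by value and did not pass with the block. Of rod, microglia and pigment epithelium markers 0 passed with the block. The part of these values in the differences of the ER genes was not tested.

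Of other genes of the pathway, 103 symbols were listed and 97 were in the table. By value 63 of the 97 were higher in cKO (64.9%, against 50.7% of all genes), with a median of 0.05. Without the block 0 passed in limma, and at an unadjusted p under 0.05 there were 5 higher and 1 lower (3.95% and 6.67% of all genes). With the block limma called 5 higher and 3 lower, and 89 did not pass (2.99% of all genes were called higher and 7.59% lower). Of 16 UPR regulators and targets, Atf4, the transcription factor translated when PERK is active, rose from 87.2 ± 5.17 to 105 ± 7.64 FPKM (0.27, adjusted p = 0.0256 with the block). Its target Ddit3, which encodes CHOP, rose from 41.7 ± 7.41 to 55.1 ± 1.81 (0.41, 0.0355). GENCODE places another entry named Ddit3 on the same strand over its exons, and Mars on the other strand. Crebzf, a bZIP protein, fell (−0.34, 0.0119). By value 8 of the 16 were higher in cKO, with a median of 0.02, and 13 did not pass with the block. Without pair 1, 3, 4 or 5 the adjusted p was 0.0863, 0.0801, 0.0927 and 0.0608 for Atf4, 0.128, 0.118, 0.0189 and 0.102 for Ddit3, and 0.0519, 0.0470, 0.0531 and 0.0353 for Crebzf.

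Among 28 genes of signal recognition, translocation and N-glycosylation, 23 were higher by value (82.1%, against 50.7% of all genes) and 3 rose with the block, as did 2.99% of all genes. These were Srp19 of the signal recognition particle (34.5 ± 4.82 and 44.0 ± 6.37 FPKM, 0.35, adjusted p = 0.0141) and the oligosaccharyltransferase subunits Krtcap2 (30.9 ± 3.91 and 38.9 ± 1.67, 0.33, 0.0354) and Dad1 (81.2 ± 12.5 and 100.1 ± 7.40, 0.31, 0.0488). Of 32 further folding enzymes 1 passed with the block, Uggt2, a glucosyltransferase of glycoprotein quality control, which fell from 11.0 ± 3.95 to 7.47 ± 3.42 (−0.56, 0.0169). Of 21 further degradation genes Edem2 fell (20.9 ± 3.84 and 16.8 ± 2.04, −0.29, 0.0483). The calls of Uggt2 and Edem2 stand beside 7.59% of all genes called lower with the block. With the block and 1 pair left out, the adjusted p was 0.0301 to 0.0692 for Srp19, 0.0347 to 0.129 for Krtcap2 and 0.0288 to 0.0758 for Uggt2, below 0.05 without pair 5 for all 3 and without pair 3 for Uggt2. Dad1 (0.0810 to 0.126) and Edem2 (0.0565 to 0.165) did not pass in any of these 4 fits.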

How the data were processed

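The authors deposited 1 table of FPKM per gene and library, in which each gene had a mean of at least 2.00 FPKM. STAR and edgeR, with the builds GRCm38 and mm10, stand in the submitters' processing notes with neither version nor role. The counting tool, annotation, strand setting and gene filter are not given in the sources used here, and the kit is directional per the labels' protocols. FPKM summed to 410581 to 448130 per library. The number of fragments is not given and whole reads could not be recovered, so there is no counting interval. Columns were matched to samples by title. Values were taken as log2(FPKM + 0.5) with no further filter and tested with limma 3.58.1 in R 4.3.3 (lmFit, eBayes with a trend, two-sided), and p-values were adjusted by Benjamini and Hochberg's method over all 12339 genes, with 0.05 as the threshold. Replicate numbers occur in both groups. After removal of group means, WT and cKO libraries of equal number correlated at 0.261 to 0.591 across genes, and those of unequal number at −0.479 to 0.211. By the rule that every pair exceed 0.1 the numbers were taken to pair the samples. WT 1 with cKO 3 (0.18) and WT 5 with cKO 4 (0.211) exceeded 0.1 too, so the rule alone does not set equal numbers apart. The pairing is thus inferred from the same data and not from the labels. The fit blocked on these numbers is printed where a call or count depends on it, and beside members with non-overlapping groups. Positions, exon lengths and overlaps came from GENCODE mouse release 21 (12327 IDs matched). It places 3 members over a gene on the same strand and 11 over one on the other strand. Promoters came from RefSeq, GRCm38.p6. Stretches that GENCODE places in an exon are printed as the element with 5 bases on each side, others with up to 30. Named genes are all 38 members and those of 97 other pathway genes that passed with or without the block. Members and lists were chosen with earlier results of these data known. Alternatives were pseudocounts, a minimum mean FPKM, scalings, the block, eBayes options, library weights, a threshold of 0.1, and leaving out libraries or pairs.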

Additional observations from a re-analysis of the deposited data

Results flagged for a closer look

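In 92 groups of 4 libraries, 9 had a library far from the other 3, where chance gives about 1 in 20. In cKO 3, Ero1l was at 42.7 FPKM against 16.2 to 19.1 in the other cKO libraries, and Edem1 at 6.0 against 2.90 to 3.34. In WT 5, Ero1l was at 11.3 against 18.9 to 20.2. WT 4 was the highest of WT for Dnajb11 (75.4 FPKM against 61.1 to 62.7), Dnajc3 (19.2 against 15.9 to 16.1) and Herpud1 (28.1 against 26.4 to 26.7). In cKO 4, Herpud1 was at 38.1 against 29.3 to 30.6. In cKO 5, Syvn1 was at 14.8 against 15.9 to 16.1, and in WT 1, Ssr4 was at 32.2 against 43.6 to 44.9.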

How the results depend on the processing

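Without the replicate block limma called 0 of 38 members higher and 0 lower under every pseudocount, filter, scaling and eBayes option tried. With the block 1 was called higher (Manf), and 8 of the 97 other pathway genes. The scalings combined with the block, and the alternatives for Nfe2l2, were added after seeing the data: the former gave 1 higher with median-of-ratios scaling (Manf), 1 with TPM scaling (Sec61b) and 0 with quantile scaling. Leaving out 1 library, or 1 pair with the block, gave 0 to 1 members called higher (1, Sdf2l1, without pair 4) and 0 to 6 pathway genes. The share of all genes called in these leave-out fits, or in the scalings with the block, is not given here. The counts of those fits therefore have no background beside them. The 7 members with all cKO above all WT became 5 with TPM scaling, 6 with quantile scaling and 7 to 13 with a library or pair left out. The share of all genes above was 1.83% with TPM scaling, 2.75% with quantile scaling and 2.55% to 8.63% with 1 library left out. The 1 below became 0 with TPM and with quantile scaling, and 1 to 3 with a library or pair left out. The share of all genes below was 2.13% with TPM scaling, 2.10% with quantile scaling and 2.82% to 8.04% with 1 library left out. The cause of these shifts was not tested. The median of the members stayed positive, from 0.08 (without cKO 3) to 0.15 (without WT 4). Nfe2l2 stood at −0.59 to −0.38 with a library left out, with an exact permutation p of 0.0571 without a WT library, where fewer assignments exist. Signs turned for 7 members near 0. With quantile scaling, with or without the block, Canx was −0.015, Ero1lb 0.036 and Edem1 0.026, and with library weights Derl2 was −0.026. With a library or pair left out, Dnajb9 ran from −0.018 to 0.15, Ero1lb from −0.13 to 0.024, Edem1 from −0.28 to 0.052, the Selenos log2 difference from −0.085 to 0.14, Derl2 from −0.045 to 0.14 and Sec61a1 from −0.074 to 0.044. Fragment numbers are unknown, so counting error could not be set apart from the spread between libraries. With 4 libraries a group, intervals of single members spanned both signs in most cases.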
